A study of Mus musculus with 24 samples.

Results

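The genes described here make and move glucose in the kidney: Pcx, Pck1, Fbp1, G6pc, Slc37a4, Slc2a2 and Slc5a2, together with Khk, the first enzyme of fructose use. They were chosen by name for their place in the pathway, and all 8 had a row among the 16921 genes of the deposited count table. All 8 passed the filter on low counts, as did 15165 genes in all. RNA came from flash-frozen cortex of the kidney. Lexogen QuantSeq libraries, which tag transcripts near their 3′ end, were read forward over 50 bases. The mice were males of the C57BL6/J strain, 22 months old, fed without restriction, and had eaten their diet since 3 months of age, with casein as the protein source in every group. The normal protein diet (NP) held 20% casein and the low protein diet (LP) held 5%. Wild type mice (WT) and mice lacking FGF21, a hormone made mainly by the liver that rises when protein intake is low (FGF21 KO), ate either diet, which gave the groups WT_NP, WT_LP, KO_NP and KO_LP with 6 libraries each. The labels do not say whether the deletion was restricted to a tissue. The study asked what the low protein diet does to the aged kidney with and without FGF21. Each library carries its own identifier, but the labels give no litter, cage or batch, so the p-values measure the spread between these libraries. The identifiers run in blocks by group. An effect of handling in that order, if there was one, could not be told apart from genotype and diet.

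Kidney cortex is, beside the liver, the tissue that can release newly made glucose into the blood, and it does so in the cells of the proximal tubule. Pyruvate carboxylase (Pcx) and cytosolic phosphoenolpyruvate carboxykinase (Pck1) carry lactate and amino acid carbon up to phosphoenolpyruvate, fructose-1,6-bisphosphatase (Fbp1) bypasses the glycolytic kinase step, and glucose-6-phosphatase (G6pc) frees the glucose inside the endoplasmic reticulum, to which Slc37a4 brings its substrate. The same cells take filtered glucose back from the urine through SGLT2 (Slc5a2) on the luminal side and pass it to the blood through GLUT2 (Slc2a2), while ketohexokinase (Khk) traps fructose as fructose 1-phosphate.

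Libraries held 8.47 M to 21.1 M counts, with a median of 15.0 M. Markers of the cortex were present in every library. None of the 10 markers of the first and second proximal tubule segments (S1 and S2, among them Slc34a1 and Slc4a4) was at 0 in any group, and their summed level ran from 4698 to 9242 counts per 1 M counts (CPM) over the libraries. The WT_NP library 1 and the KO_LP libraries 4 and 6 stood apart from the rest of their groups. They had the lowest mean log2 level of those markers in their group, at 8.35, 8.23 and 8.08, and the highest of 5 tubular injury markers such as Havcr1 and Lcn2, at 5.47, 5.97 and 5.92. The WT_LP library 3 was the lowest of its group for the first list, at 8.44, and the highest for the second, at 5.41. Some results for the diet in KO mice, and that of G6pc on the normal diet, are given with and without the first 3. For the genotypes on the low protein diet, only the count of all genes called is given without them. The tables used here hold no row for Fgf21, so the deletion itself is not analysed here.

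The promoters of Pck1 and G6pc are shown because these enzymes stand at the entry and at the exit of the pathway, are textbook targets of fasting signals and insulin, and showed the largest differences between the genotypes of the 8 on LP and on NP. The letters are those of RefSeq on build GRCm38.p6, 250 bases before to 50 bases after the start, both on the plus strand. The Pck1 promoter lies at chr2:173152823-173153122 and that of G6pc at chr11:101367466-101367765. Capitals mark CGTCA in Pck1, the reverse complement of the cyclic AMP response element core TGACG, which starts 90 bases before the transcription start. In G6pc they mark GTTAATAATT, a match to the HNF1 motif, in which the seventh base is free, and TGTTTTG, a core of the insulin response element bound by forkhead factors, which start 221 and 174 bases before the transcription start.
Pck1 promoter: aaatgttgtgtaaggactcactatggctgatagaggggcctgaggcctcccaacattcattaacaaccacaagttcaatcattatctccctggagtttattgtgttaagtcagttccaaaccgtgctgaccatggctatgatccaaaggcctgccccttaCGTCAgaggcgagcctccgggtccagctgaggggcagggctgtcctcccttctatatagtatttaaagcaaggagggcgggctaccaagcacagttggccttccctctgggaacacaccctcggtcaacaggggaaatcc
G6pc promoter: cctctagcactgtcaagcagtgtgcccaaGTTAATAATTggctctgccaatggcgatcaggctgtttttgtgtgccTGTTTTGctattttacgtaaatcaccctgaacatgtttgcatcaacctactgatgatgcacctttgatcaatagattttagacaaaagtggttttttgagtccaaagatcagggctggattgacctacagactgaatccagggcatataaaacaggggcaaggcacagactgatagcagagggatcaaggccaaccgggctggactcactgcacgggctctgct
Of 32851 promoters of the same length in that table, 20.81% held TGACG, 0.4% held the HNF1 motif and 6.28% held TGTTTTG on either strand. In all, 11 motifs were searched on both strands in the promoters of the 7 members that the table lists. The others were the full cyclic AMP element TGACGTCA, which holds the core, HNF4 as CAAAGTCCA, the amino acid response motif CARE as TGATGNAAT, the E-box CACGTG, the TATA box TATAAA, a direct repeat bound by PPAR factors, the forkhead motif TGTTTAC and the insulin response core TATTTTG. The Pck1 window held none of these, and the G6pc window held the TATA box alone, 29 bases before the start. The cyclic AMP core was also found in Khk and in 2 of the promoters of Slc37a4, whose windows overlap and share a match. Each match describes the letters of the window only.

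Across the 5 comparisons of the design, few of the 8 genes were called, which does not show that the others were unchanged. Levels are CPM. Changes are log2 fold changes with a standard error (SE) derived from the F statistic of an edgeR quasi-likelihood fit over all 24 libraries. A gene is called at a Benjamini-Hochberg adjusted p under 0.05 over the 15165 genes tested. In wild type mice, 0 of the 8 genes were called between the diets, where 0% of all genes were called. By unadjusted p, 1 of the 8 and 580 of all genes (3.82%) fell under 0.05. DESeq2 and limma voom also called 0 of the 8, beside 14 and 6 genes in all. Here and below, limma voom was run with quality weights for the libraries. In FGF21 KO mice, 1 of the 8, Slc5a2, fell on the low protein diet, where 7.17% of all genes were called. By unadjusted p, 4 of the 8 and 27.9% of all genes fell under 0.05. On the normal diet 1 of the 8, G6pc, was lower in KO than in wild type mice, where 0.574% of all genes were called, and 2 of the 8 had an unadjusted p under 0.05 against 12.6% of all genes. On the low protein diet edgeR called 0 of the 8 between the genotypes, against 2.93% of all genes. There, 2 of the 8, Pck1 and G6pc, had an unadjusted p under 0.05 against 21.1% of all genes. DESeq2 called both, beside 910 of 15152 genes, and limma voom called 1, beside 877 of 15165. edgeR called 445 genes there. The test of whether the diet effect differed between the genotypes called 0 of the 8 and 0% of all genes with edgeR, with 1 of the 8 and 2430 of all genes (16%) under an unadjusted p of 0.05. DESeq2 called 0 of the 8 in that test and 117 genes in all.

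**Figure D1:**
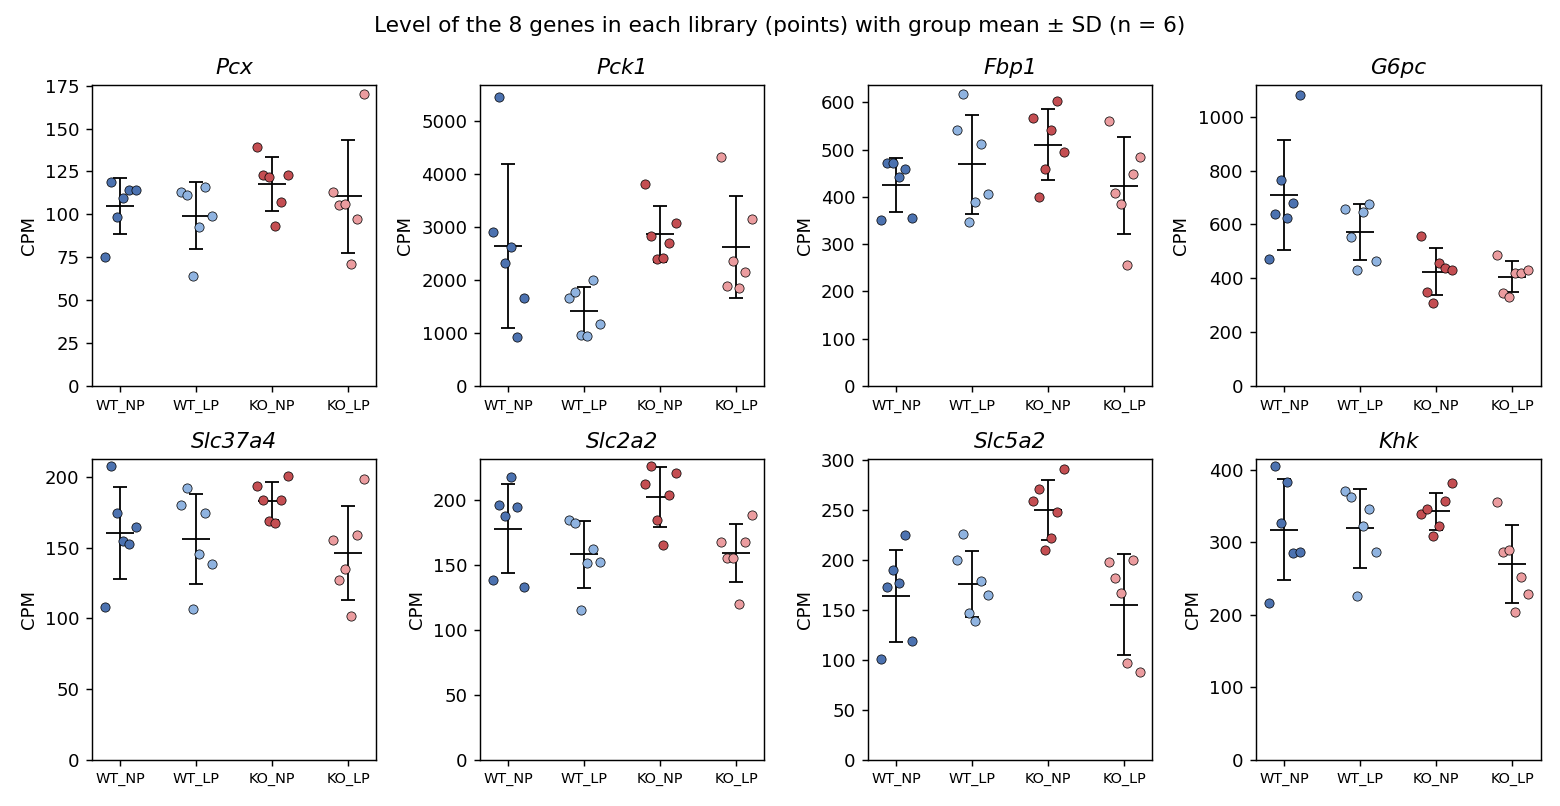
Level of each of the 8 genes (vertical axis, CPM, from 0) in the 24 libraries, 6 points per group, with the group mean and SD as a bar with whiskers. G6pc lies lower in both KO groups, Slc5a2 is highest in KO_NP, and Pck1 is lowest in WT_LP.

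Pcx (chromosome 19, 4510472 to 4621752, plus strand, GRCm38 as for all gene positions here), which turns pyruvate into oxaloacetate in the mitochondrion, was not called in any comparison. Its group means were 105 ± 16.3 CPM in WT_NP, 99.3 ± 19.4 in WT_LP, 118 ± 15.8 in KO_NP and 110.5 ± 32.7 in KO_LP (SD, n = 6). Its largest difference in size was 0.17 (SE 0.16, adjusted p = 0.702, edgeR), between KO and wild type on the normal diet, with a 95% interval of -0.17 to 0.50. The genotypes differed on the low protein diet by 0.15 (SE 0.16, adjusted p = 0.620, edgeR). Between the diets Pcx differed by -0.08 in wild type (SE 0.16, adjusted p = 0.999955) and by -0.10 in KO mice (SE 0.16, adjusted p = 0.738), and the interaction, which is the diet effect in KO minus that in wild type, was -0.02 (SE 0.23, adjusted p = 0.982, edgeR). The KO_LP library 6, which stands apart in its markers, held the highest value of Pcx, at 170.2 CPM.

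Pck1 (chromosome 2, 173153048 to 173159273, plus strand) makes phosphoenolpyruvate from oxaloacetate. Its lowest, median and highest levels were 918.8, 2476 and 5464 CPM in WT_NP and 948.2, 1422 and 2003 in WT_LP. In KO_NP they were 2405, 2763 and 3825 CPM, and in KO_LP 1854, 2263 and 4327. WT_NP spanned the range of all other groups, and WT_LP overlapped KO_LP. The coefficient of variation was 58.6% in WT_NP and 18.5% in KO_NP. The wild type means were 2650.4 ± 1554 CPM on NP and 1422 ± 452 on LP, a log2 difference of -0.90 (SE 0.30, 95% interval -1.53 to -0.27, edgeR) with an unadjusted p of 0.0070 and an adjusted p of 0.980. All 6 of the WT_LP libraries lay below the mean of WT_NP, and without the WT_NP library 2, which held 5464 CPM, the difference was -0.55. In KO mice the means were 2876 ± 533 CPM on NP and 2626 ± 959 on LP, a difference of -0.13 (SE 0.30, adjusted p = 0.812, edgeR). The diet effect in KO minus that in wild type was 0.77 (SE 0.43, 95% interval -0.12 to 1.65, adjusted p = 0.375, edgeR), so a difference between the genotypes was not shown.

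On the low protein diet the difference in Pck1 between KO and wild type was 0.89 (SE 0.30, 95% interval 0.26 to 1.51), with 4 of 6 KO libraries above every wild type library. In this comparison edgeR called 445 genes in all and DESeq2 910. The adjusted p of Pck1 was 0.103 in edgeR and 0.0460 in DESeq2, so this difference lay on either side of the threshold depending on the tool. Left-out libraries moved it between 0.68 and 1.01, with adjusted p values of 0.0615 to 0.170 in edgeR. Library totals averaged 16.6 M counts in WT_LP and 12.3 M in KO_LP (exact permutation test, two-sided, p = 0.00216, adjusted p = 0.0491), and the part of depth in the result was not tested. On the normal diet the difference in Pck1 between the genotypes was 0.12 (SE 0.30, adjusted p = 0.901, edgeR). Pck2, the mitochondrial isozyme, was at 8.83 ± 0.923 CPM in KO_NP and 12.5 ± 1.04 in KO_LP, with no overlap, and rose by 0.50 (SE 0.11, adjusted p = 0.0231, edgeR). A rise was called for 3.59% of all genes, and 3.71% had no overlap between these groups. Without KO_LP 4, KO_LP 6 and WT_NP 1, 0 members of its list of 14 tested genes were called.

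Fbp1 (chromosome 13, 62864753 to 62888282, minus strand), which removes a phosphate from fructose 1,6-bisphosphate, had means of 425 ± 56.9 CPM in WT_NP, 469 ± 105 in WT_LP, 511 ± 74.6 in KO_NP and 424 ± 103 in KO_LP. The groups overlapped in every comparison. Between the diets Fbp1 differed by 0.14 in wild type (SE 0.16, adjusted p = 0.999955) and by -0.27 in KO mice (SE 0.16, adjusted p = 0.266, edgeR). The interaction was the largest of its differences, at -0.41 (SE 0.22, 95% interval -0.87 to 0.05), and was not called, with an unadjusted p of 0.0762 and an adjusted p of 0.361 in edgeR. KO and wild type differed by 0.27 on the normal diet (SE 0.16, adjusted p = 0.504) and by -0.15 on the low protein diet (SE 0.16, adjusted p = 0.627, edgeR).

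G6pc (chromosome 11, 101367561 to 101377903, plus strand) performs the last step of gluconeogenesis, and was the member that differed most clearly between the genotypes. In wild type mice its lowest, median and highest levels were 473, 660.2 and 1079 CPM on NP and 432, 600.1 and 677 on LP. In KO mice they were 307, 434 and 558 CPM on NP and 330.2, 420.2 and 485 on LP. On the normal diet 5 of 6 KO libraries lay below every wild type library, and the KO_NP library 1 overlapped the WT_NP library 1. On the low protein diet 5 of 6 KO libraries again lay below every wild type library.

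On the normal diet G6pc was lower in KO mice by 0.75 on the log2 scale, from 710.2 ± 204 to 424 ± 87.7 CPM (log2 difference -0.75, SE 0.17, 95% interval -1.09 to -0.40, adjusted p = 0.0323, edgeR). A call in this direction was made for 0.231% of all genes. On the low protein diet the means were 572 ± 105 and 405 ± 57.9 CPM, a difference of -0.50 (SE 0.17, 95% interval -0.84 to -0.16) with an adjusted p of 0.0934 in edgeR, 0.0474 in DESeq2 and 0.0353 in limma voom. These tools called 445, 910 and 877 genes in all on that diet. The 2 differences were not shown to differ from each other, since the interaction was 0.25 (SE 0.23, 95% interval -0.23 to 0.73, adjusted p = 0.618, edgeR). Averaged over both diets, a comparison added after these values were seen, KO mice were lower by 0.62 (log2 difference -0.62, SE 0.12, 95% interval -0.86 to -0.38, adjusted p = 0.00284, edgeR), where 3.77% of all genes were called and 2.04% in this direction.

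The call on the normal diet was kept in 18 of 24 fits that left out 1 library. It was lost without the WT_NP libraries 3 or 6 and without the KO_NP libraries 2, 3, 5 or 6, with adjusted p values up to 0.104, and the difference then ranged down in size to -0.59. The average over both diets was called in 24 of 24 such fits. The call was also lost when only the WT_NP and KO_NP libraries were fitted (-0.73, adjusted p = 0.0902, edgeR). Without WT_NP 1, KO_LP 4 and KO_LP 6 the difference on the normal diet was -0.83 (adjusted p = 0.0113, edgeR). The proximal tubule S1 and S2 markers averaged 8.73 in WT_NP and 8.79 in KO_NP on the log2 scale (exact permutation test, two-sided, p = 0.626, adjusted p = 0.784 over 68 marker tests), and with their mean as a covariate the difference in G6pc was -0.75 (adjusted p = 0.0267). Of these markers 5 had positive and 5 negative differences. Podocyte markers averaged 5.04 and 4.68 (exact permutation p = 0.0216, adjusted p = 0.136) and endothelial markers 5.75 and 5.61 (p = 0.0173, adjusted p = 0.136). Mitochondrially encoded genes took 25.3% and 28.1% of the counts (exact permutation p = 0.0173, adjusted p = 0.136). The part of these 3 measures in the G6pc result was not tested. Between the diets G6pc differed by -0.31 in wild type (SE 0.17, adjusted p = 0.999955) and by -0.06 in KO mice (SE 0.17, adjusted p = 0.832, edgeR). G6pc3, which encodes the form of the enzyme that is found in most tissues, differed by 0.07 (SE 0.09, adjusted p = 0.774, edgeR) between the genotypes on the normal diet.

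Slc37a4 (chromosome 9, 44396852 to 44402968, plus strand), the transporter that brings glucose 6-phosphate to G6pc, was not called by edgeR in any comparison. Its means were 160.3 ± 32.5 CPM in WT_NP, 156 ± 31.8 in WT_LP, 183 ± 13.2 in KO_NP and 146 ± 33.1 in KO_LP. In KO mice the difference between the diets was -0.32 (SE 0.15, 95% interval -0.63 to -0.01), with 5 of 6 LP libraries below every NP library. The unadjusted p was 0.0409 and the adjusted p 0.160 in edgeR, which called 1087 genes in all. limma voom, which called 1693, called this difference at an adjusted p of 0.0400. With the S1 and S2 marker mean as a covariate it was -0.19 (adjusted p = 0.732, edgeR). In wild type mice the difference was -0.04 (SE 0.15, adjusted p = 0.999955), and the interaction was -0.29 (SE 0.21, adjusted p = 0.513, edgeR). Between the genotypes on the low protein diet it was -0.10 (SE 0.15, adjusted p = 0.754, edgeR). On the normal diet Slc37a4 differed between them by 0.19 (SE 0.15, 95% interval -0.12 to 0.50, adjusted p = 0.631, edgeR), with 6 of 6 KO libraries above the wild type mean. The ratio of G6pc to Slc37a4 counts within a library, which does not depend on library scaling, ran from 3.08 to 6.56 in WT_NP and from 1.82 to 2.88 in KO_NP, without overlap. It ran from 2.89 to 4.44 in WT_LP and from 2.17 to 4.14 in KO_LP, with overlap. A ratio shows that the pair changed unequally, not which of them changed. How often other pairs of genes separate in this way was not tested, so the ratio adds no test to the result for G6pc.

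**Figure D2:**
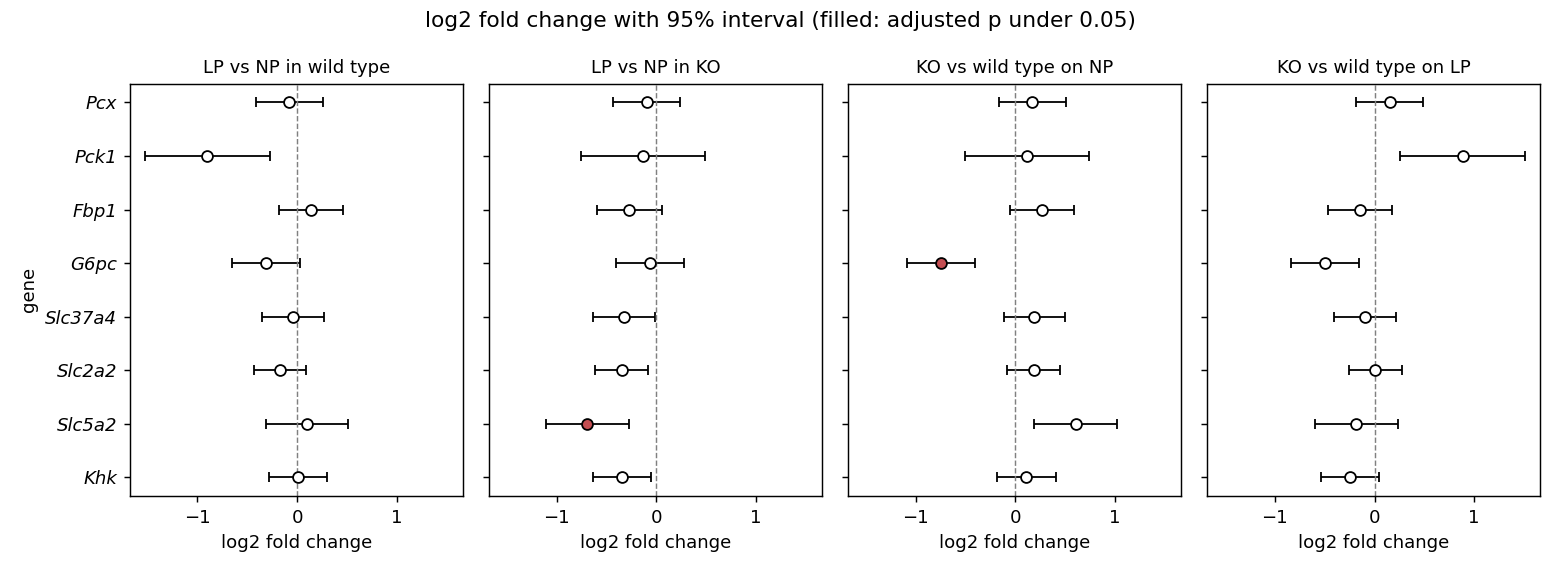
log2 fold change (horizontal axis) of each gene in 4 comparisons. Whiskers are the 95% interval derived from the edgeR fit, and calls at an adjusted p under 0.05 are filled. G6pc is called in KO against wild type on NP and Slc5a2 in LP against NP in KO, and the interval of Pck1 is the widest in each panel.

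Slc2a2 (chromosome 3, 28697903 to 28731359, plus strand) encodes the transporter GLUT2, through which glucose leaves the tubule cell. Its means were 178 ± 34.3 CPM in WT_NP, 158 ± 25.6 in WT_LP, 203 ± 23.2 in KO_NP and 159 ± 22.6 in KO_LP. In KO mice the difference between the diets was -0.35 (SE 0.13, 95% interval -0.61 to -0.08, adjusted p = 0.0861, edgeR), with 6 of 6 LP libraries below the NP mean and 3 of 6 below every NP library. limma voom called it at an adjusted p of 0.0478, beside 1693 genes in all against 1087 with edgeR. In wild type the difference was -0.17 (SE 0.13, adjusted p = 0.999955, edgeR), and the interaction was -0.18 (SE 0.18, adjusted p = 0.655, edgeR). KO and wild type differed by 0.18 on the normal diet (SE 0.13, adjusted p = 0.581) and by 0.01 on the low protein diet (SE 0.13, adjusted p = 0.982, edgeR).

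Slc5a2 (chromosome 7, 128265657 to 128272430, plus strand) encodes SGLT2, the target of the glucose-lowering gliflozin drugs, and was the one member called between the diets. Its lowest, median and highest levels were 101, 175 and 225 CPM in WT_NP and 139, 172 and 226 in WT_LP. In KO_NP they were 210.1, 253 and 291 CPM, and in KO_LP 87.3, 174 and 199. Every KO_LP library lay below every KO_NP library, and within KO_LP the libraries 4 and 6, at 96.5 and 87.3 CPM, lay well below the other 4. Both wild type groups overlapped each other and both KO groups.

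In KO mice Slc5a2 fell from 250.1 ± 30.2 CPM on NP to 155 ± 50.4 on LP (log2 difference -0.69, SE 0.20, 95% interval -1.11 to -0.27, adjusted p = 0.0420, edgeR). A call in this direction was made for 3.58% of all genes, and 3.71% had no overlap between these groups. In wild type mice the difference was 0.10 (SE 0.20, 95% interval -0.31 to 0.51, adjusted p = 0.999955, edgeR). The difference of the diet effects was -0.79 (SE 0.28, 95% interval -1.38 to -0.20), with an unadjusted p of 0.0104 and an adjusted p of 0.224 in edgeR, so the genotypes were not shown to differ in their response. The call was kept in 17 of 24 fits that left out 1 library. It was lost without the KO_NP libraries 1, 2, 4, 5 or 6 and without the KO_LP libraries 4 or 6, with adjusted p values up to 0.114. Without WT_NP 1, KO_LP 4 and KO_LP 6 the difference was -0.43 (adjusted p = 0.139, edgeR).

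Marker levels are given beside this result. Over the 10 markers of proximal tubule S1 and S2, the mean log2 level was 8.79 in KO_NP and 8.51 in KO_LP (exact permutation test, two-sided, p = 0.0346, adjusted p = 0.156 over 68 marker tests), and their summed level ran from 7085 to 8931 CPM and from 4698 to 7411 CPM. Of these markers, 2 of 10 were called lower in KO_LP, Slc34a1 and Slc7a8. The 7 markers of the third segment (S3) averaged 7.15 and 6.66 (exact permutation p = 0.0498, adjusted p = 0.189). The 5 tubular injury markers averaged 3.43 and 5.12 (exact permutation p = 0.00216, the smallest that 6 against 6 libraries allow, adjusted p = 0.0491), with summed levels of 73.0 to 98.5 CPM and 142 to 472 CPM and none at 0. Mitochondrially encoded genes took 28.1% and 23.1% of the counts (exact permutation p = 0.00216, adjusted p = 0.0491). The 7 markers of macrophages and dendritic cells, among them Cd74 and C1qb, averaged 4.73 and 5.53 (exact permutation p = 0.0108, adjusted p = 0.136). With the S1 and S2 marker mean as a covariate, Slc5a2 differed by -0.29 (adjusted p = 0.402, edgeR), and with the mean of the immune markers it differed by -0.43 (adjusted p = 0.437, edgeR). In tissue RNA such as this, fewer tubule cells and less RNA per cell cannot be told apart.

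KO_NP was also the group in which Slc5a2 had a higher mean than in wild type mice on the same diet, and both comparisons share these 6 libraries. The means were 164 ± 46.2 CPM in WT_NP and 250.1 ± 30.2 in KO_NP, a difference of 0.61 (SE 0.20, 95% interval 0.19 to 1.02, adjusted p = 0.180, edgeR), with 4 of 6 KO libraries above every wild type library. It did not pass the test in any fit that left out 1 library, and with the S1 and S2 marker mean as a covariate it was 0.55 (adjusted p = 0.00888, edgeR). On the low protein diet the genotypes differed by -0.18 (SE 0.20, adjusted p = 0.631, edgeR). At its 3′ end, where these libraries are read, Slc5a2 overlaps BC017158 on the opposite strand (128271379 to 128272430). Whether counting used strand is not given in the sources used here, so reads of the pair could be split wrongly. BC017158 itself differed by -0.02 between the diets in KO mice (SE 0.10, adjusted p = 0.914, edgeR).

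Slc5a1, which encodes SGLT1, the transporter that takes up the glucose left over further down the tubule, moved the other way in KO mice. It rose from a mean of 58.8 CPM on NP to 75.0 on LP (log2 difference 0.35, SE 0.10, adjusted p = 0.0436, edgeR), with 5 of 6 LP libraries above every NP library. It was called in 13 of 24 fits that left out 1 library and not when WT_NP 1, KO_LP 4 and KO_LP 6 were left out. The ratio of Slc5a2 to Slc5a1 counts within a library ran from 3.70 to 4.79 in KO_NP, above every other library. It ran from 1.26 to 3.64 in WT_NP, from 1.70 to 3.30 in WT_LP and from 1.10 to 3.06 in KO_LP. Here too, the share of other gene pairs that separate was not tested. The other glucose transporters outside the 8 genes numbered 9 tested, with Slc5a1 rising and Slc5a9 falling (-0.61, SE 0.15, adjusted p = 0.0255, edgeR) in KO mice on the low protein diet, 2 calls beside 7.17% of all genes. Slc5a9, a transporter of mannose and glucose, was also lower in KO_LP than in WT_LP, at 14.3 and 20.8 CPM (-0.55, SE 0.15, adjusted p = 0.0488, edgeR), a direction called for 1.59% of all genes. These groups did not overlap for it, as for 2.27% of all genes, and it was called in 5 of 24 fits that left out 1 library.

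**Figure D3:**
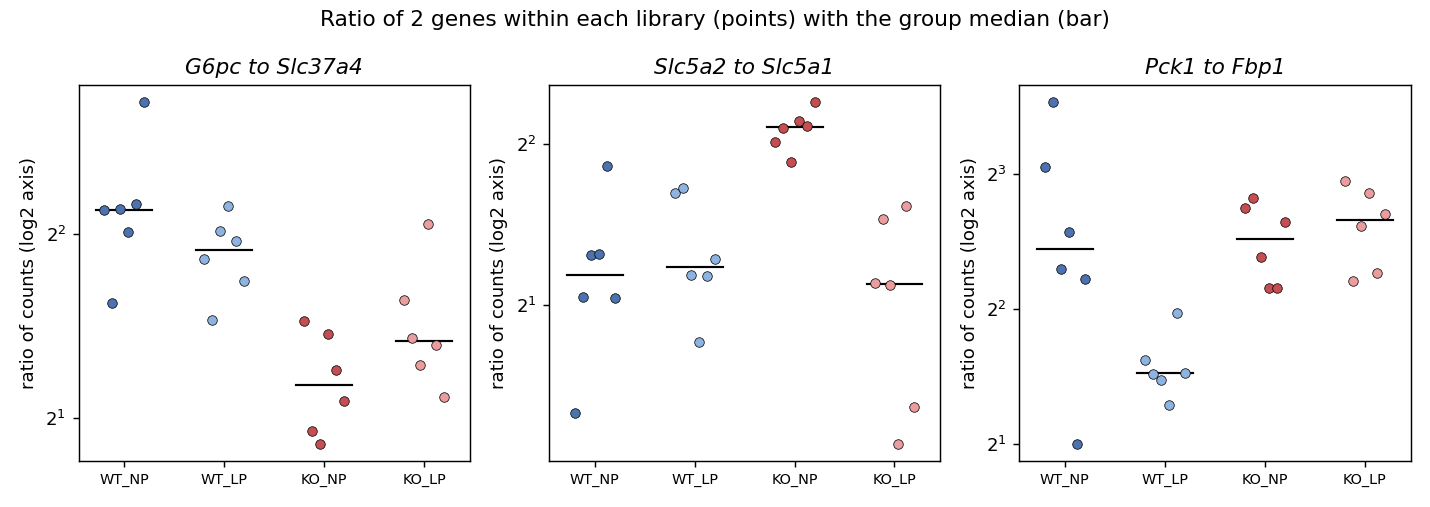
Ratio of the counts of 2 genes within each library (vertical axis, log2 scale), with 6 libraries per group as points and the group median as a bar. The ratio of G6pc to Slc37a4 does not overlap between WT_NP and KO_NP, and that of Slc5a2 to Slc5a1 is highest in the 6 KO_NP libraries.

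Khk (chromosome 5, 30921431 to 30931248, plus strand), the fructose kinase, had means of 317 ± 69.7 CPM in WT_NP, 319 ± 54.7 in WT_LP, 343 ± 25.5 in KO_NP and 270 ± 53.7 in KO_LP. In KO mice it differed between the diets by -0.35 (SE 0.14, 95% interval -0.64 to -0.05, adjusted p = 0.117, edgeR), with 5 of 6 LP libraries below every NP library. Of the fits that left out 1 library, 1 called it and 23 did not, with adjusted p values of 0.0407 to 0.271 in edgeR. The call came without the KO_LP library 1, at 356 CPM, where the difference was -0.44. In wild type mice the difference was 0.01 (SE 0.14, 95% interval -0.28 to 0.30, adjusted p = 0.999955, edgeR). The interaction was -0.35 (SE 0.20, adjusted p = 0.381, edgeR). KO and wild type differed by 0.11 on the normal diet (SE 0.14, adjusted p = 0.778) and by -0.24 on the low protein diet (SE 0.14, adjusted p = 0.332, edgeR).

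The other fructose and polyol genes were not called with the diet in either genotype. Of 7 fructose and polyol genes, 0 were called in KO mice by edgeR, and the median difference was -0.16 against 0.03 for all genes. In DESeq2 and in limma voom 1 fell, where these tools called 1839 and 1693 genes in all, against 1087 with edgeR. Sord, which makes fructose from sorbitol, had the smallest p, at 1223 CPM on NP and 911 on LP (-0.43, SE 0.14, adjusted p = 0.0578, edgeR), without overlap. The same held for 3.71% of all genes. The fructose transporters Slc2a5 and Slc5a10 differed by -0.16 (SE 0.15, adjusted p = 0.525) and 0.53 (SE 0.24, adjusted p = 0.146, edgeR). Akr1b3, the aldose reductase that makes sorbitol from glucose, was higher in KO_LP than in WT_LP, at 3.03 and 1.78 CPM (0.76, SE 0.21, adjusted p = 0.0451, edgeR), and was called in 9 of 24 fits that left out 1 library. A call in this direction was made for 1.35% of all genes. Its level was low and, as given for Pck1, library totals differed between these groups. The part of depth was not tested.

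As a list, the 8 genes had mostly negative differences between the diets in KO mice. There, 8 of 8 differences were negative, with a median of -0.30 against 0.03 over all genes tested. In the same comparison 9 of the 10 proximal tubule S1 and S2 markers were negative, with a median of -0.26, and 7 of 7 S3 markers, with a median of -0.48. In wild type mice 5 of 8 were negative, with a median of -0.06 against -0.01 over all genes. Without WT_NP 1, KO_LP 4 and KO_LP 6 the median of the 8 in KO mice was -0.20, that of the S1 and S2 markers -0.13 and that of the S3 markers -0.32. With 1 surrogate variable in the fit the median of the 8 was 0.03. Between the genotypes on the normal diet 7 of 8 differences were positive, with G6pc the exception and a median of 0.18 against -0.02 over all genes. These comparisons share their KO_NP libraries, the group in which 7 of the 8 genes had their highest mean.

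Among the steps that gluconeogenesis shares with glycolysis and the isozymes of the 8 genes, 3 of 14 tested genes were called between the diets in KO mice, against 7.17% of all genes. Pck2 rose on the low protein diet, and 2 fell. Mdh1 and Mdh2, the malate dehydrogenases that shuttle oxaloacetate out of the mitochondrion, fell by 0.53 (log2 difference -0.53, SE 0.14, adjusted p = 0.0303) and 0.31 (-0.31, SE 0.09, adjusted p = 0.0428, edgeR). They were called in 18 and 14 of 24 fits that left out 1 library. The list's median was -0.21 against 0.03 over all genes. Of 13 tested genes of glycolysis alone 2 were called, beside the same 7.17%. Of these 1 rose, Pfkfb3, which makes an activator of phosphofructokinase (0.47, SE 0.14, adjusted p = 0.0436), and 1 fell, Pfkm, a phosphofructokinase (-0.36, SE 0.11, adjusted p = 0.0430, edgeR). On the low protein diet Pfkfb3 and Pfkfb4 were both higher in KO than in wild type mice, by 0.54 (SE 0.14, adjusted p = 0.0345) and 0.70 (SE 0.17, adjusted p = 0.0251, edgeR), a direction called for 1.35% of all genes. Pfkfb4 was low, at 5.51 CPM in WT_LP and 8.94 in KO_LP. As given for Pck1, library totals differed between these groups, and the part of depth was not tested.

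Of 17 genes that supply carbon for new glucose, 15 had negative differences in KO mice on the low protein diet, with a median of -0.32 against 0.03 over all genes. Of the 17, 4 fell and 1 rose, where 3.58% of all genes fell and 3.59% rose. Ldhb, the lactate dehydrogenase subunit that favours pyruvate, fell from 496 ± 31.2 to 387 ± 34.5 CPM without overlap (-0.36, SE 0.08, adjusted p = 0.0195, edgeR) and was called in 23 of 24 fits that left out 1 library. Of all genes, 3.71% had no overlap between these groups. Prodh, which starts proline breakdown, fell by 0.66 (-0.66, SE 0.17, adjusted p = 0.0293), and Gk, the glycerol kinase, fell by 0.65 (-0.65, SE 0.19, adjusted p = 0.0400, edgeR). Slc5a8, a lactate and pyruvate transporter, fell by 0.55 (-0.55, SE 0.16, adjusted p = 0.0402, edgeR). Pdk4, the kinase that shuts pyruvate dehydrogenase, rose by 3.52 (SE 0.91, adjusted p = 0.0308, edgeR), but its highest KO_LP library stood at 142.4 CPM against a median of 5.51, and without the KO_LP library 6 the difference was 1.06 (adjusted p = 0.215). Ldhb was also lower in KO_LP than in WT_LP (-0.32, SE 0.08, adjusted p = 0.0297, edgeR), at 387 and 482 CPM without overlap. There, 1.59% of all genes were called lower and 2.27% had no overlap.

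Of 20 regulators of these genes, 1 was called with the diet in KO mice, a share no higher than the 7.17% over all genes. Ppargc1a, the coactivator PGC-1α that raises Pck1 and G6pc transcription in fasting liver, fell from 100.5 to 77.6 CPM (-0.37, SE 0.11, adjusted p = 0.0428, edgeR), with 5 of 6 LP libraries below every NP library, and was called in 14 of 24 fits that left out 1 library. Between the genotypes on the normal diet Foxo3, a forkhead factor restrained by insulin, had the smallest p of the list (-0.47, SE 0.14, adjusted p = 0.137, edgeR). Averaged over both diets Foxo3 was lower in KO mice by 0.35 (-0.35, SE 0.10, adjusted p = 0.0490, edgeR), and was called in 5 of 24 fits that left out 1 library. In that average Glud1, which feeds glutamate carbon into the citric acid cycle, was higher in KO mice by 0.46 (SE 0.12, adjusted p = 0.0245, edgeR), a direction called for 1.72% of all genes, and was called in 24 of 24. For the diet in wild type mice, for the interaction and for the genotypes on the normal diet, edgeR called 0 genes in these 6 pathway lists. In KO mice the diet counts of all 6 lists became 0 without WT_NP 1, KO_LP 4 and KO_LP 6, where the count over all genes fell from 1087 to 36. They also became 0 with the S1 and S2 marker mean as a covariate, where 3 genes in all were called.

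**Figure D4:**
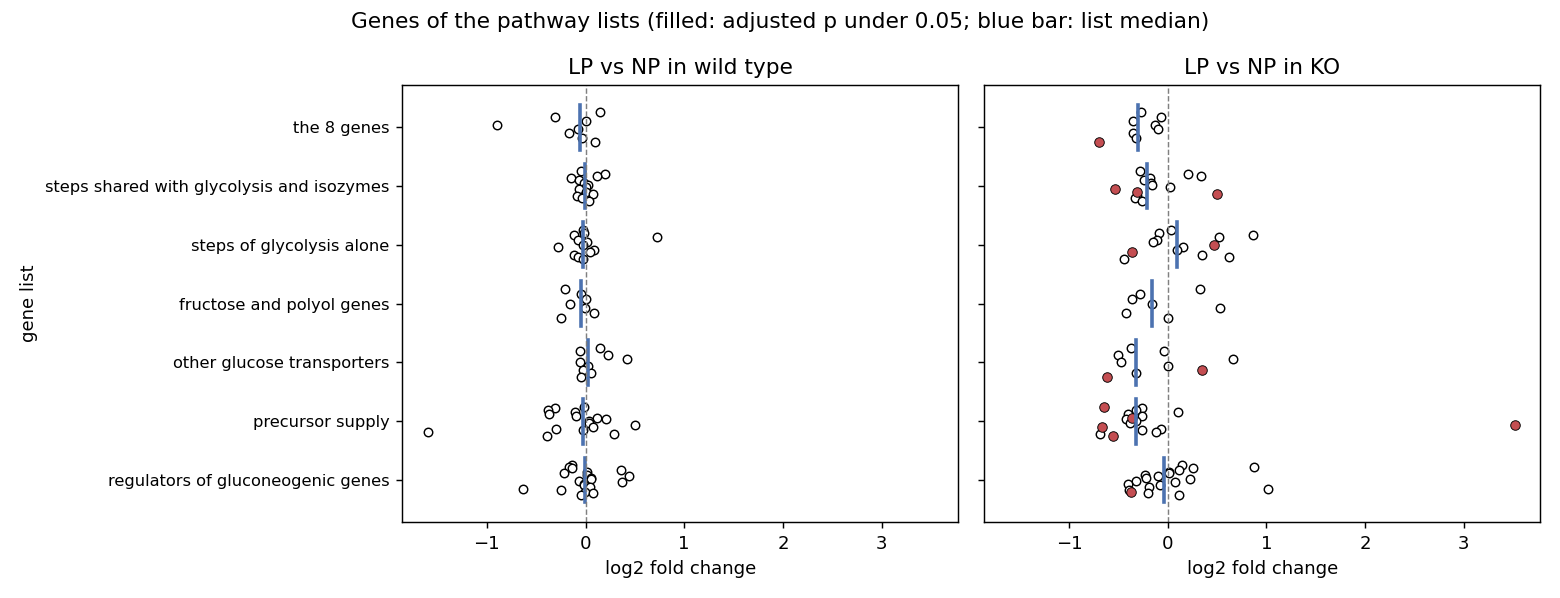
log2 fold change between the diets (horizontal axis) of every tested gene of the 8 and of 6 pathway lists, in wild type (left) and KO mice (right), with calls at an adjusted p under 0.05 filled and the list median as a blue bar. No gene is called in wild type mice, and the right panel holds the called genes named in the text, with Pdk4 far to the right at 3.52.

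Within groups the 8 genes did not vary as one. Over the 24 libraries, as deviations of log2 CPM from the group means, the 28 pairs had a median Pearson r of 0.51 and ranged from 0.07 to 0.86. All genes of a library share its RNA, its depth and its cell makeup, so these values are a description. Pcx and Slc37a4 were the closest pair, at 0.86. Pck1 and G6pc, which open and close the pathway, had an r of 0.09 with each other. The 15 pairs without Pck1 and G6pc had a median of 0.68.

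**Figure D5:**
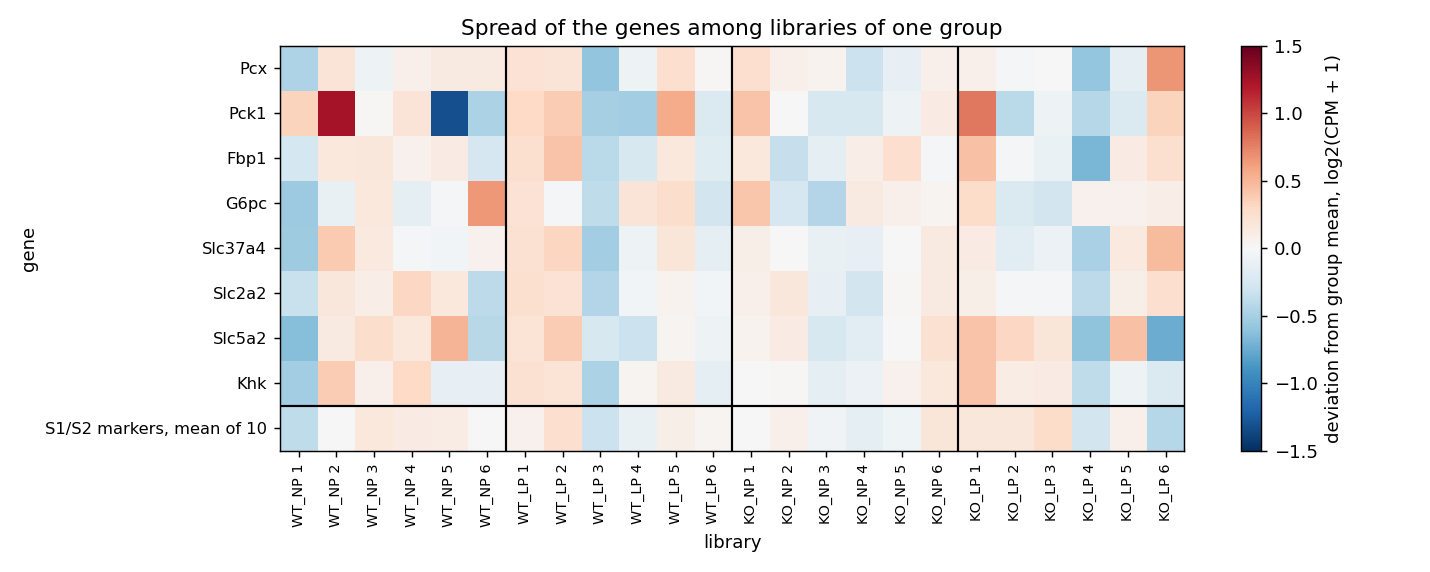
Deviation of each gene from its group mean (colour, log2 of CPM + 1, from blue below to red above the mean) in the 24 libraries, with the mean of 10 proximal tubule S1 and S2 markers in the last row and black lines between groups. Pck1 has the strongest colours, in the WT_NP libraries 2 and 5, and the KO_LP libraries 4 and 6 are low for Slc5a2 and for the markers.

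Slc5a2 and Khk followed the proximal tubule S1 and S2 markers most closely, with r of 0.87 and 0.76 over the 24 libraries. Pck1 and G6pc had r of 0.09 and 0.15 with the same markers, and the other 4 lay between 0.34 and 0.53. Without the 2 libraries farthest from the median of the gene, r stayed at 0.78 for Slc5a2, 0.63 for Khk and 0.48 for Slc2a2. It went from 0.44 to 0.21 for Fbp1, from 0.40 to 0.08 for Slc37a4 and from 0.34 to 0.04 for Pcx, so these 3 values rest largely on 2 libraries each. For Pck1 and G6pc it was then 0.23 and -0.01. In the KO_LP library 6 the 8 genes split: Slc5a2 was the lowest of its group at 87.3 CPM, while Pcx, Slc37a4 and Slc2a2 were the highest of theirs at 170.2, 199 and 189 CPM. Among 10450 genes averaging 5 CPM or more, the one whose deviations were most like those of Slc5a2 was Slc34a3, a proximal tubule phosphate transporter, with an r of 0.95, followed by Lrpap1 with 0.90. Rmdn3 was among those nearest to Khk, at 0.93, and for Fbp1 they were Phyh and Cmbl, at 0.94 and 0.91. Slc2a2 was nearest to Abcg2 and Dad1, at 0.90 and 0.87, Pcx to Fam126b and Kcnj15, at 0.92 and 0.88, and Slc37a4 to Sh3tc1, at 0.89, and Pcx. Pck1 was nearest to AW822252 and Col27a1, at 0.86 and 0.84. G6pc had the weakest nearest gene of the 8, Pitrm1 at 0.75, followed by Eral1 at 0.69. Without the 2 libraries farthest from the median of the member, r was 0.65 for Pck1 with Col27a1. For G6pc it was then 0.60 with Pitrm1 and 0.61 with Eral1. The other pairs named here then lay between 0.79 and 0.92.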

How the data were processed

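Kidney cortex RNA of 24 mice in 4 groups of 6 was measured by 3′ tag sequencing. The authors deposited raw counts per gene and a normalized signal, which is each count over 1 factor per library (largest relative SD of that factor over genes 1.5e-15). DESeq2 1.22.2 and build GRCm38 are named per the submitters' processing notes. Aligner, counter and annotation: not given in the sources used here. No gene had a mean count under 3.0, so low genes had been removed upstream. Symbols came from the deposited table for 14208 identifiers and from a gene name table for 2668, and 45 matched neither. Gene positions are those of GENCODE on GRCm38.

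Raw counts were fitted in R 4.3.3 with edgeR 4.0.16 (filterByExpr, TMM, robust quasi-likelihood, 4 group means over all 24 libraries), tested on simulated data first. P-values were adjusted by the Benjamini-Hochberg method over 15165 genes, with 1756 below the filter. CPM use the TMM-scaled library size, and correlations use log2 of CPM plus 1. Single values of 6 against 6 libraries were compared by exact permutation tests (scipy 1.17.1). Alternatives used DESeq2 1.42.0, limma 3.58.1 and sva 3.50.0, and limma voom was run with library quality weights. Replicate pairs within groups had a chi-square per degree of freedom of 5.59 to 63.9, so none was a library deposited again. Replicate numbers only name libraries. Total counts were 8.47 M to 21.1 M per library, which limits low genes more than these 8.

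The text names all 8 genes in every comparison. Of each other pathway list it names genes called in a comparison (up to 6) or otherwise that with the smallest p, and for each of the 8 the 2 genes most like it, except 1 gene that is not reported here. G6pc3, Slc2a5, Slc5a10 and BC017158 were named outside that rule after their values were seen. The 8 genes and the lists were chosen with earlier results of these data known. Ratios of counts within a library were also computed for pairs of genes not described here, so the pairs given were picked.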

Additional observations from a re-analysis of the deposited data

How the results depend on the processing

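Of 432 values of the 8 genes under alternatives other than leaving out 1 library, 421 kept their side of the threshold, 5 lost a call, 6 gained one and 0 called values changed sign. The count of the 8 genes called between the diets in KO mice, 1 with edgeR, was 3 with limma voom (Slc2a2, Slc37a4 and Slc5a2). It was 0 with the proximal tubule marker covariate, with the immune marker covariate, with 1 surrogate variable and, an alternative chosen after seeing the data, without the WT_NP library 1 and the KO_LP libraries 4 and 6. The count for KO against wild type on NP, 1 with edgeR, was 0 with only the libraries compared in the fit (G6pc adjusted p = 0.0902) and 2 with the proximal tubule marker covariate (G6pc and Slc5a2). The count for KO against wild type on LP, 0 with edgeR, was 2 with DESeq2 and 1 with limma voom. Leaving out each library gave counts of 0 to 2 for the diet in KO mice, 0 to 1 for the genotypes on NP, and 0 throughout for the other 3 comparisons. The cause of these shifts was not tested. Signs of 39 uncalled values changed under these alternatives, the largest of them 0.35 in size.

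Over all genes, the 1087 calls for the diet in KO mice (544 higher) became 1839 with DESeq2, 1693 with limma voom, 28 with the immune and 3 with the proximal tubule marker covariate, 2 with 1 surrogate variable and 36 without the 3 libraries. limma on the deposited normalized values called 1034, of which 412 were higher. For the genotypes on LP, 445 calls became 910 with DESeq2, 877 with limma voom, 161 with only the libraries compared, 144 and 210 with the proximal tubule and immune marker covariates, 235 with 1 surrogate variable and 200 without the 3 libraries. For the genotypes on NP, 87 calls became 246 with DESeq2, 140 with limma voom, 142 with the proximal tubule marker covariate and 58 with a filter of 5 CPM in 6 libraries. A fit on only the libraries compared does not exist for the interaction, which uses all 4 groups. No paired analysis was possible because the replicate numbers follow accession order and name libraries only.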
